A study of Mus musculus with 12 samples.

Results

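The genes described here are 33 mouse genes of lipogenesis, triglyceride synthesis and lipid droplets, out of 53599 genes in the count table. They were taken from a fixed list of names by function, running from the supply of acetyl-CoA and NADPH to the loading of triglyceride onto very low density lipoprotein (VLDL), and no measured value entered the choice. RNA was sequenced from 12 libraries of cultured mouse liver-derived cells in 4 groups of 3: bilCLiP in 3D, bilCLiP in 2D, hepCLiP in 3D and hepCLiP in 2D. Per the labels, bilCLiP cells derive from biliary epithelial cells and hepCLiP cells from hepatocytes, and the 3D culture, started from the 2D cells, is a hepatic induction. The 3D cells were aggregated for 3 days in microwells without serum and then held for 6 to 8 days in suspension with 10 ng/ml of the cytokine oncostatin M. The 2D cells grew on collagen with 10% fetal bovine serum. All groups received the medium for small hepatocytes with Y-27632, A83-01 (an inhibitor of TGF-beta type I receptors) and CHIR99021 (a GSK3 inhibitor). Geometry, serum, oncostatin M and time in culture differ together between 3D and 2D, so their parts cannot be told apart. The genotype is RosaYFP in all bilCLiP libraries and in hepCLiP replicate 2 of each culture, and RosaConfetti in hepCLiP replicates 1 and 3. These are fluorescent reporters at the Rosa26 locus.

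Groups follow the sample titles. The treatment tag contradicts the title for all 3 bilCLiP 3D libraries, tagged 2D, and for hepCLiP 2D replicate 3, tagged 3D. In log expression, the correlation of this last library was 0.836 to 0.867 with hepCLiP 3D and 0.960 to 0.968 with its own group. Libraries held 16142365 to 21253382 counts, and the 33 genes took 0.353% to 0.726% of them in 3D and 0.342% to 0.657% in 2D. The 7 hepatocyte markers (Alb, Apoa1, Ttr, Cps1, Cyp3a11, Hnf4a, Cebpa) summed to 18829 to 45539 CPM (counts scaled to a library size of 1000000) in bilCLiP 3D, against 180 to 1043 CPM in bilCLiP 2D. In hepCLiP cells this sum was 44073 to 52034 CPM in 3D and 341 to 1782 CPM in 2D. The 5 biliary markers (Krt7, Krt19, Epcam, Sox9, Spp1) were also counted in every group, at 13593 to 33256 CPM in bilCLiP 3D, 5414 to 10330 CPM in bilCLiP 2D, 11268 to 15626 CPM in hepCLiP 3D and 3113 to 5861 CPM in hepCLiP 2D. That sum is mostly Spp1, which was higher in both 3D groups, and the members of the list went different ways. Krt19 averaged 5.32 CPM in bilCLiP 3D and 694 CPM in bilCLiP 2D (adjusted p = 0.00126), and 8.74 CPM in hepCLiP 3D and 860.4 CPM in hepCLiP 2D (adjusted p = 0.00129). Krt7 averaged 106 CPM in bilCLiP 3D and 427 CPM in bilCLiP 2D (adjusted p = 0.114), and 55.8 CPM in hepCLiP 3D and 507 CPM in hepCLiP 2D (adjusted p = 0.0225). In bulk samples, a difference in RNA per cell and a difference in the number of cells of a type cannot be told apart.

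Hepatocytes make fatty acids from cytosolic acetyl-CoA, desaturate and elongate them, and join them to glycerol phosphate to form triglyceride. The triglyceride is stored in lipid droplets, whose surface carries perilipins and CIDE proteins, or is loaded onto apolipoprotein B and secreted as VLDL. SREBP-1c, made from Srebf1, and ChREBP, made from Mlxipl, are the transcription factors best known for turning on this program in response to insulin and carbohydrate.

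Across the list, more genes were higher than lower in 3D. In both origins the strongest differences included Elovl2 (elongation), Plin5 and Cidea (lipid droplets), Mttp (VLDL loading) and Dgat2 (triglyceride assembly), but not fatty acid synthase. The stearoyl-CoA desaturase Scd1 was among the strongest in hepCLiP cells. In bilCLiP cells 15 of 31 genes tested rose in 3D and 3 fell, against backgrounds of 15.8% of all genes higher and 14.5% lower, or 30.3% called in all. In hepCLiP cells 16 rose and 2 fell, against 16.9% of all genes higher and 17.9% lower, or 34.7% in all. A call means an adjusted p (Benjamini-Hochberg) under 0.05 in edgeR's quasi-likelihood test across 14798 genes. The median log2 fold change of the 31 genes was 1.20 in bilCLiP cells, where it was -0.0024 over all genes, and 1.02 in hepCLiP cells, where it was -0.06 over all genes. Both contrasts called 13 of the genes higher and 2 lower. The share of all genes called in both was not computed, so this overlap has no background. The contrasts share no library, but 1 fit over all 12 libraries gave both. All 3 bilCLiP 3D libraries lay above all 3 bilCLiP 2D libraries for 16 genes and below them for 4, where 24.6% and 24.5% of all genes did so. In hepCLiP cells 17 genes lay wholly above and 2 wholly below, where 22.3% and 24.5% of all genes did so. The other 2 genes, Elovl3, an elongase of very long chains, and Mogat1, a monoacylglycerol acyltransferase, had 1 count each in the 12 libraries and were not tested.

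**Figure D1:**
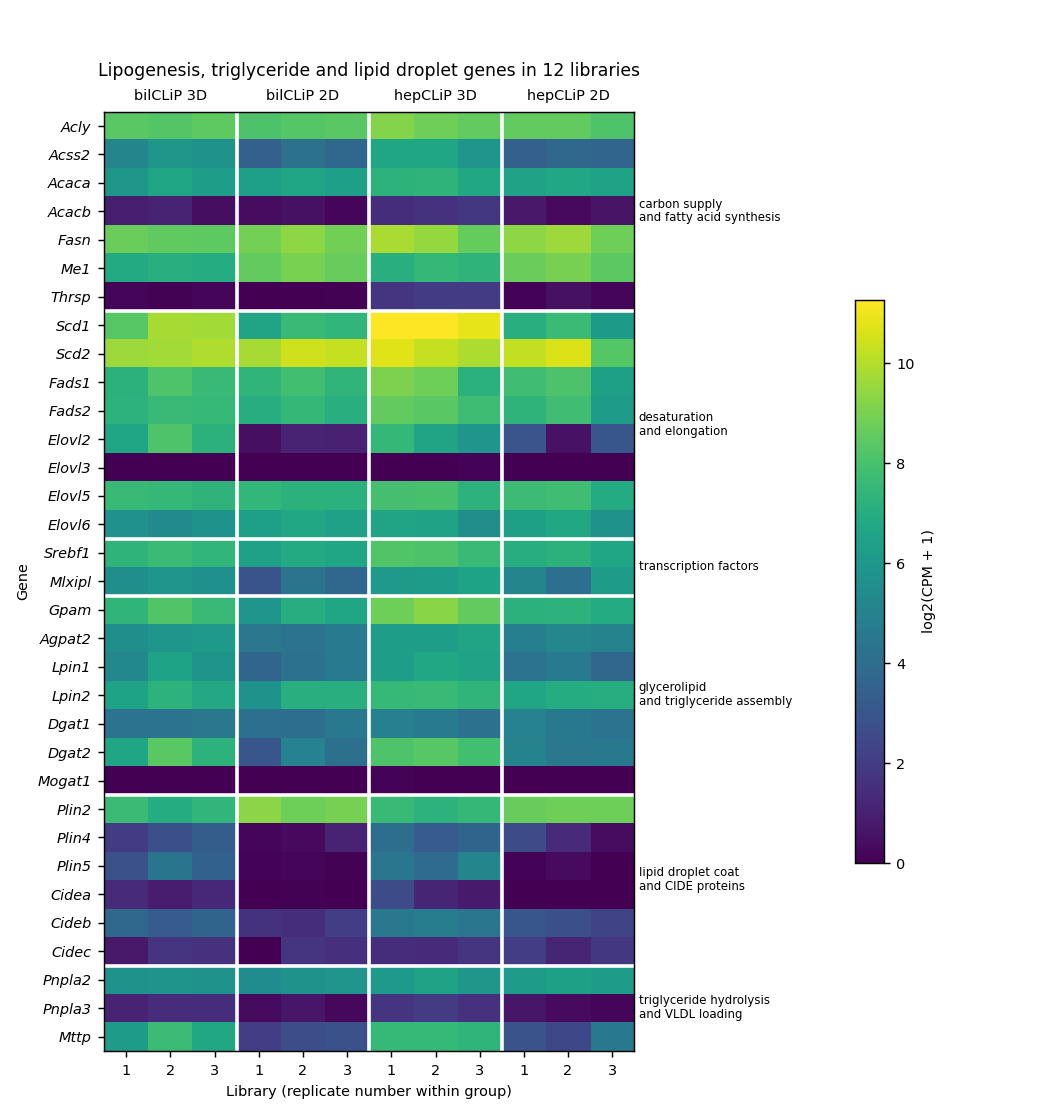
Expression of the 33 genes, as log2(CPM + 1) on the colour scale, with 1 column per library (bilCLiP 3D, bilCLiP 2D, hepCLiP 3D, hepCLiP 2D, replicates 1 to 3 in each) and genes grouped by role. Scd1, Dgat2, Elovl2, Plin5 and Mttp are brighter in the 3D columns of both origins, whereas Me1 and Plin2 are brighter in the 2D columns.

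The scaling between libraries bears on these counts. Composition (TMM) factors ran from 0.764 to 1.26 and were below 1 in all 6 3D libraries. With library totals alone, the median over all genes shifted by -0.47 in bilCLiP and -0.57 in hepCLiP cells, and the medians of the 31 genes were 0.71 and 0.43. The calls then stood at 13 higher and 5 lower in bilCLiP cells, where 9.1% of all genes were higher and 36.6% lower. They stood at 14 higher and 4 lower in hepCLiP cells, where 8.73% and 44.8% of all genes were.

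In carbon supply and fatty acid synthesis, acetyl-CoA synthetase rose and malic enzyme fell in both origins, while fatty acid synthase passed the test in neither. Of the 7 genes of this role, 1 rose and 1 fell in bilCLiP cells, where 15.8% of all genes were higher and 14.5% lower. The share called there, 28.6%, was near the 30.3% of all genes. In hepCLiP cells 3 rose and 1 fell, where 16.9% of all genes were higher and 17.9% lower. Acss2, which makes acetyl-CoA from acetate, had 34.6, 61.5 and 52.7 CPM in bilCLiP 3D, against 10.1, 18.0 and 12.7 CPM in bilCLiP 2D. In hepCLiP cells it had 98.5, 99.3 and 60.7 CPM in 3D, against 10.1, 12.9 and 11.8 CPM in 2D. Every 3D library lay above every 2D library of its origin, with log2 fold changes of 1.87 ± 0.28 (SE; adjusted p = 0.000904) in bilCLiP and 2.89 ± 0.29 (adjusted p = 0.000113) in hepCLiP cells. Me1, cytosolic malic enzyme and a source of NADPH, had 118, 133 and 125 CPM in bilCLiP 3D, against 375, 509.8 and 398 CPM in bilCLiP 2D. In hepCLiP cells Me1 had 133, 181 and 158 CPM in 3D, against 417, 503 and 348 CPM in 2D. The groups did not overlap in either origin, and the log2 fold changes were -1.77 ± 0.19 (adjusted p = 0.000130) in bilCLiP and -1.43 ± 0.18 (adjusted p = 0.000342) in hepCLiP cells.

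Fasn, the synthase that builds palmitate, had 409, 367 and 359 CPM in bilCLiP 3D, against 480.2, 649 and 465 CPM in bilCLiP 2D. In hepCLiP cells Fasn had 922, 723 and 384 CPM in 3D, against 662, 798 and 441 CPM in 2D. The bilCLiP groups did not overlap and the hepCLiP groups did. Its log2 fold changes of -0.49 ± 0.31 (adjusted p = 0.258) in bilCLiP and 0.09 ± 0.31 (adjusted p = 0.838) in hepCLiP cells did not pass. With library totals alone the bilCLiP value was -0.96 (adjusted p = 0.0234). Acly, which cuts citrate into acetyl-CoA, averaged 329 ± 22.8 CPM in bilCLiP 3D and 308 ± 29.3 CPM in bilCLiP 2D (SD, n = 3 each), and 462 ± 101 CPM in hepCLiP 3D and 346 ± 53.3 CPM in hepCLiP 2D. Neither difference passed (adjusted p = 0.737 and 0.0990).

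Acetyl-CoA carboxylase, which commits acetyl-CoA to fatty acid synthesis as malonyl-CoA, has a cytosolic form made from Acaca and a mitochondrial form made from Acacb. Acaca had 62.0, 97.6 and 79.0 CPM in bilCLiP 3D, against 80.6, 97.7 and 81.5 CPM in bilCLiP 2D, and the log2 fold change was -0.12 ± 0.20 (adjusted p = 0.689). In hepCLiP cells Acaca had 157, 158 and 103 CPM in 3D, against 88.6, 107 and 88.7 CPM in 2D, with a log2 fold change of 0.56 ± 0.20 (adjusted p = 0.0546). Acacb had 0.922, 1.09 and 0.348 CPM in bilCLiP 3D, against 0.301, 0.428 and 0.137 CPM in bilCLiP 2D (log2 fold change 1.41 ± 0.58, adjusted p = 0.0916). In hepCLiP cells Acacb rose, with 1.76, 2.13 and 2.57 CPM in 3D, against 0.694, 0.227 and 0.500 CPM in 2D (log2 fold change 2.17 ± 0.57, adjusted p = 0.0131). Thrsp, the thyroid hormone responsive Spot 14 protein that promotes lipogenesis, also rose in hepCLiP cells. It had 2.34, 3.05 and 2.92 CPM in hepCLiP 3D, against 0.0925, 0.409 and 0.150 CPM in hepCLiP 2D (log2 fold change 3.63 ± 0.64, adjusted p = 0.00169). Without 2D replicate 2 that value was 4.45. In bilCLiP cells Thrsp had 5 counts over the 3D libraries and 1 count over the 2D libraries, a ratio of 7.11 with an exact 95% counting interval of 0.796 to 336 (adjusted p = 0.0979).

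The promoters of Acss2, called higher in both origins, and Fasn, called in neither, are shown as a contrast within the role. They are RefSeq windows on build GRCm38.p6, from 250 bases before to 50 bases after the start, written 5′ to 3′ along the gene. The Acss2 window is chr2:155517793-155518092 on the plus strand, and the Fasn window is chr11:120824498-120824797 on the minus strand. Capitals mark letters of 4 motifs, searched on both strands. The first is the CCAAT box. The GC box was searched as GGGCGG. The E-box was CACGTG, its own reverse complement. The sterol regulatory element was searched as TCACNCCAC.
Acss2: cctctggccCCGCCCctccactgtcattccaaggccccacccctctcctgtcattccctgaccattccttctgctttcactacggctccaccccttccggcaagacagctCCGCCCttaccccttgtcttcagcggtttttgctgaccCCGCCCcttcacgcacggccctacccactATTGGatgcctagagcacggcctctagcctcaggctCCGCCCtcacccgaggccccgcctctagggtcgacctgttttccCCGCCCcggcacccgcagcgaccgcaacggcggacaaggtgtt
Fasn: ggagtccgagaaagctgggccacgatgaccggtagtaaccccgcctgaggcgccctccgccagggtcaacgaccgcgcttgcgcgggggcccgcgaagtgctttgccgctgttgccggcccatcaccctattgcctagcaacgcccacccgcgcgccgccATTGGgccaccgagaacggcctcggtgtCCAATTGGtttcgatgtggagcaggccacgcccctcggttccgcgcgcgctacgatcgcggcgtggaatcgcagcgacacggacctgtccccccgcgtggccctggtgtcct
The Acss2 window holds 5 GC box matches and 1 CCAAT match, and the Fasn window holds 3 CCAAT matches, 2 of them overlapping. Neither holds the E-box or sterol regulatory element letters. Windows were found for 26 of the 33 genes, and none for Scd1, Scd2, Fads1, Elovl3, Dgat1, Dgat2 and Cidea. Some genes have more than 1 window and count more than once, giving 36 windows in all. Of these 17 (47.2%) hold CCAAT and 19 (52.8%) the GC box, where 37.4% and 35.7% of 32851 windows of all genes do. The E-box is in 4 (11.1%) against 7.15% of all, and the sterol regulatory element in 1 (2.78%), that of Mlxipl, against 1.24% of all. These matches are a description of letters and were not tied to the expression values.

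Desaturation and elongation held some of the widest differences. Of 7 genes tested, 2 rose and 1 fell in bilCLiP cells, where 15.8% of all genes were higher and 14.5% lower. In hepCLiP cells 3 rose, where 16.9% of all genes were higher and 17.9% lower. Scd1, the stearoyl-CoA desaturase that makes oleate and palmitoleate, had 327, 888 and 845 CPM in bilCLiP 3D, against 95.7, 199.9 and 169 CPM in bilCLiP 2D. In hepCLiP cells Scd1 had 2443, 2479.9 and 1879 CPM in 3D, against 137, 203 and 70.4 CPM in 2D. The groups stood apart in both origins, and Scd1 was 4.43-fold higher in bilCLiP 3D (log2 fold change 2.15 ± 0.46, adjusted p = 0.00591) and 16.6-fold higher in hepCLiP 3D (4.05 ± 0.50, adjusted p = 0.000287). Scd2, the closely related desaturase, had 799.6, 838 and 987 CPM in bilCLiP 3D, against 881, 1398 and 1247 CPM in bilCLiP 2D. In hepCLiP cells it had 1696, 1255 and 952 CPM in 3D, against 1223, 1666 and 317 CPM in 2D. The groups overlapped in both origins, and neither log2 fold change passed (-0.43 ± 0.47, adjusted p = 0.535 in bilCLiP; 0.28 ± 0.47, adjusted p = 0.674 in hepCLiP cells). Scd1 and Scd2 are near-identical in places, and how reads shared between them were counted is not given in the sources used here.

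Elovl2, which elongates polyunsaturated fatty acids on the way to docosahexaenoic acid, was low in 2D and near 1 CPM or below in bilCLiP 2D. It had 97.0, 287 and 150.0 CPM in bilCLiP 3D, against 0.388, 1.13 and 1.05 CPM in bilCLiP 2D (log2 fold change 7.69 ± 0.99, adjusted p = 0.000404). In hepCLiP cells Elovl2 had 181, 96.3 and 58.4 CPM in 3D, against 6.80, 0.455 and 7.14 CPM in 2D (log2 fold change 4.55 ± 0.84, adjusted p = 0.00220). Every 3D library exceeded every 2D library. Fads2, the delta-6 desaturase of the same polyunsaturated pathway, had 157, 198 and 187 CPM in bilCLiP 3D, against 128, 184 and 136 CPM in bilCLiP 2D (adjusted p = 0.601). In hepCLiP cells Fads2 had 381, 333 and 216 CPM in 3D, against 159.9, 226 and 71.7 CPM in 2D. The groups overlapped in both origins. The hepCLiP log2 fold change of 1.02 ± 0.36 passed narrowly (adjusted p = 0.0468), and the call was lost in 9 of the 12 fits that left out 1 library (adjusted p = 0.0156 to 0.113).

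Elovl6, which elongates palmitate to stearate, fell in bilCLiP cells, with 50.8, 41.4 and 54.5 CPM in 3D, against 81.5, 105 and 85.6 CPM in 2D. Its groups did not overlap there (log2 fold change -0.89 ± 0.30, adjusted p = 0.0420), though the call was lost in 7 of the 12 fits that left out 1 library (adjusted p = 0.0166 to 0.136). In hepCLiP cells Elovl6 had 94.5, 90.2 and 45.9 CPM in 3D, against 84.1, 104 and 52.2 CPM in 2D (log2 fold change -0.06 ± 0.29, adjusted p = 0.898). Fads1, the delta-5 desaturase, and Elovl5, an elongase of polyunsaturated chains, did not pass in either origin without pairing. With same-numbered libraries as pairs, Fads1 passed in hepCLiP cells (log2 fold change 0.90, adjusted p = 0.00239). Fads1 averaged 212 ± 71.0 CPM in bilCLiP 3D and 188 ± 38.4 CPM in bilCLiP 2D, and 371 ± 199.9 CPM in hepCLiP 3D and 195 ± 100.2 CPM in hepCLiP 2D (SD, n = 3 each). Elovl5 averaged 177 ± 17.9 CPM in bilCLiP 3D and 158 ± 16.4 CPM in bilCLiP 2D, and 219 ± 55.8 CPM in hepCLiP 3D and 186 ± 56.5 CPM in hepCLiP 2D.

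**Figure D2:**
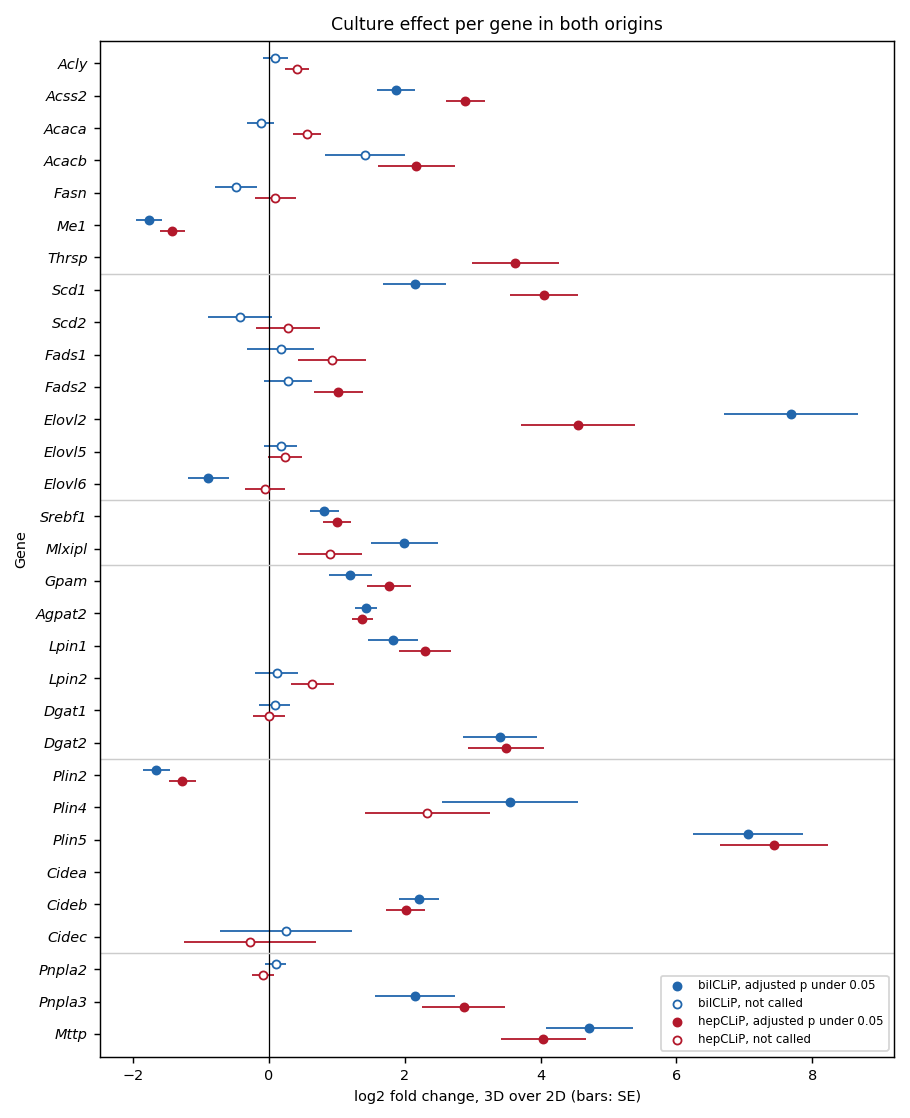
Log2 fold change of 3D over 2D for the 31 genes tested, in bilCLiP (blue) and hepCLiP cells (red), with bars of 1 SE and filled points where the adjusted p was under 0.05. Points of genes with 3 or fewer counts in a group are not drawn (Cidea in both origins, Thrsp in bilCLiP cells). Plin5 sits at 7.06 and 7.44, and Me1 and Plin2 sit left of 0 in both origins.

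Both transcription factors had positive fold changes, and 3 of these 4 differences passed. Over all genes, 30.3% passed in bilCLiP and 34.7% in hepCLiP cells. Srebf1 had 159, 202 and 171 CPM in bilCLiP 3D, against 87.1, 116 and 99.1 CPM in bilCLiP 2D (log2 fold change 0.82 ± 0.21, adjusted p = 0.0137). In hepCLiP cells Srebf1 had 293, 277 and 193 CPM in 3D, against 131, 153 and 97.4 CPM in 2D (1.00 ± 0.21, adjusted p = 0.00433). Its groups stood apart in both origins, but with library totals alone neither call was kept (adjusted p = 0.162 in bilCLiP and 0.0818 in hepCLiP cells). Gene-level counts do not separate SREBP-1c from SREBP-1a. Mlxipl had 48.1, 57.3 and 49.5 CPM in bilCLiP 3D, against 6.63, 19.2 and 13.0 CPM in bilCLiP 2D (log2 fold change 2.00 ± 0.49, adjusted p = 0.0114). In hepCLiP cells Mlxipl had 66.8, 75.3 and 91.6 CPM in 3D, against 35.4, 16.4 and 73.5 CPM in 2D (0.90 ± 0.47, adjusted p = 0.166). The hepCLiP groups overlapped through 2D replicate 3, the library whose treatment tag says 3D. Without that library the log2 fold change was 1.59 (adjusted p = 0.0223).

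In glycerolipid and triglyceride assembly, the same 4 of 6 genes tested rose in both origins. They cover each step from glycerol phosphate to triglyceride: Gpam, Agpat2, Lpin1 and Dgat2. Other enzymes of these steps did not all rise. Of 8 further acyltransferases and lipins tested, 2 rose (Agpat3, Lpin3) and 2 fell (Agpat1, Agpat5) in bilCLiP 3D. The backgrounds were 15.8% of all genes higher and 14.5% lower. For hepCLiP 3D, 1 rose (Agpat3) and 4 fell (Gpat4, Agpat1, Agpat4, Agpat5), against 16.9% and 17.9% of all genes. Gpam, the mitochondrial glycerol-3-phosphate acyltransferase that starts the pathway, had 164, 297 and 198 CPM in bilCLiP 3D, against 57.4, 131 and 98.5 CPM in bilCLiP 2D (log2 fold change 1.20 ± 0.32, adjusted p = 0.0158). In hepCLiP cells Gpam had 445, 621 and 381 CPM in 3D, against 149.5, 155 and 121 CPM in 2D (1.77 ± 0.32, adjusted p = 0.00200). The groups stood apart in both origins. The bilCLiP call was lost without 3D replicate 2 (adjusted p = 0.0671) and with library totals alone (adjusted p = 0.0601). Agpat2, which adds the second acyl chain, had 47.7, 58.0 and 64.9 CPM in bilCLiP 3D, against 21.2, 18.7 and 23.4 CPM in bilCLiP 2D. In hepCLiP cells Agpat2 had 77.2, 79.2 and 94.0 CPM in 3D, against 27.9, 36.5 and 32.2 CPM in 2D. Replicates were close here, and the log2 fold changes were 1.43 ± 0.16 (adjusted p = 0.000166) in bilCLiP and 1.37 ± 0.16 (adjusted p = 0.000189) in hepCLiP cells.

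Lipins are phosphatidate phosphatases that make diacylglycerol. Lpin1 had 37.3, 92.9 and 55.8 CPM in bilCLiP 3D, against 11.7, 17.8 and 23.0 CPM in bilCLiP 2D (log2 fold change 1.83 ± 0.37, adjusted p = 0.00441). In hepCLiP cells Lpin1 had 75.5, 106 and 89.7 CPM in 3D, against 18.5, 24.7 and 12.04 CPM in 2D (2.30 ± 0.38, adjusted p = 0.00122). The 3D libraries were higher without overlap. Lpin2 averaged 119 ± 32.2 CPM in bilCLiP 3D and 109.9 ± 48.4 CPM in bilCLiP 2D (adjusted p = 0.822), and 182 ± 13.4 CPM in hepCLiP 3D and 117 ± 16.3 CPM in hepCLiP 2D (adjusted p = 0.144; SD, n = 3 each). Dgat2, 1 of the 2 enzymes that complete triglyceride and the one linked to newly made fatty acids, had 99.3, 333 and 155 CPM in bilCLiP 3D, against 7.19, 31.2 and 17.1 CPM in bilCLiP 2D. In hepCLiP cells Dgat2 had 291, 327 and 234 CPM in 3D, against 31.5, 22.0 and 22.3 CPM in 2D. It was 10.6-fold higher in bilCLiP 3D (log2 fold change 3.40 ± 0.55, adjusted p = 0.00131) and 11.2-fold higher in hepCLiP 3D (3.49 ± 0.55, adjusted p = 0.000999). The bilCLiP log2 value moved to 2.78 without 3D replicate 2 and to 4.01 without 2D replicate 2. Dgat1, the other enzyme of this step and unrelated in sequence, averaged 19.5 ± 1.85 CPM in bilCLiP 3D and 18.4 ± 3.65 CPM in bilCLiP 2D, and 23.9 ± 5.55 CPM in hepCLiP 3D and 23.9 ± 6.27 CPM in hepCLiP 2D. Its log2 fold changes were 0.08 ± 0.23 (adjusted p = 0.829) and -0.00 ± 0.23 (adjusted p = 0.991).

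Pairs of genes that share a step therefore had different values, and 3 such pairs, chosen after their values were seen, were set against each other within each library. The log2 ratio of Scd1 to Scd2 was -0.48 ± 0.72 in bilCLiP 3D and -2.96 ± 0.21 in bilCLiP 2D, and 0.83 ± 0.26 in hepCLiP 3D and -2.79 ± 0.54 in hepCLiP 2D (SD, n = 3 each). For Dgat2 to Dgat1 it was 3.15 ± 0.92 in bilCLiP 3D and -0.22 ± 1.10 in bilCLiP 2D, and 3.59 ± 0.22 in hepCLiP 3D and 0.09 ± 0.16 in hepCLiP 2D. The Lpin1 to Lpin2 ratio was -1.005 in bilCLiP 3D and -2.58 in bilCLiP 2D, and -1.02 in hepCLiP 3D and -2.72 in hepCLiP 2D. None of these 3D groups overlapped its 2D group, which the choice of the pairs made likely. Ratios of other gene pairs were not computed, so this has no background. Such ratios do not depend on the scaling between libraries, and they show unequal change, not which gene moved. Per kilobase of exon (GENCODE M21 gene models), the highest mean levels among the 33 genes were Scd2 at 160.1 ± 18.1 CPM/kb in bilCLiP 3D and 215 ± 48.7 CPM/kb in bilCLiP 2D, Scd1 at 463 ± 68.8 CPM/kb in hepCLiP 3D and Scd2 at 196 ± 126 CPM/kb in hepCLiP 2D. In bilCLiP 3D Scd1 stood at 140 ± 63.9 CPM/kb.

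**Figure D3:**
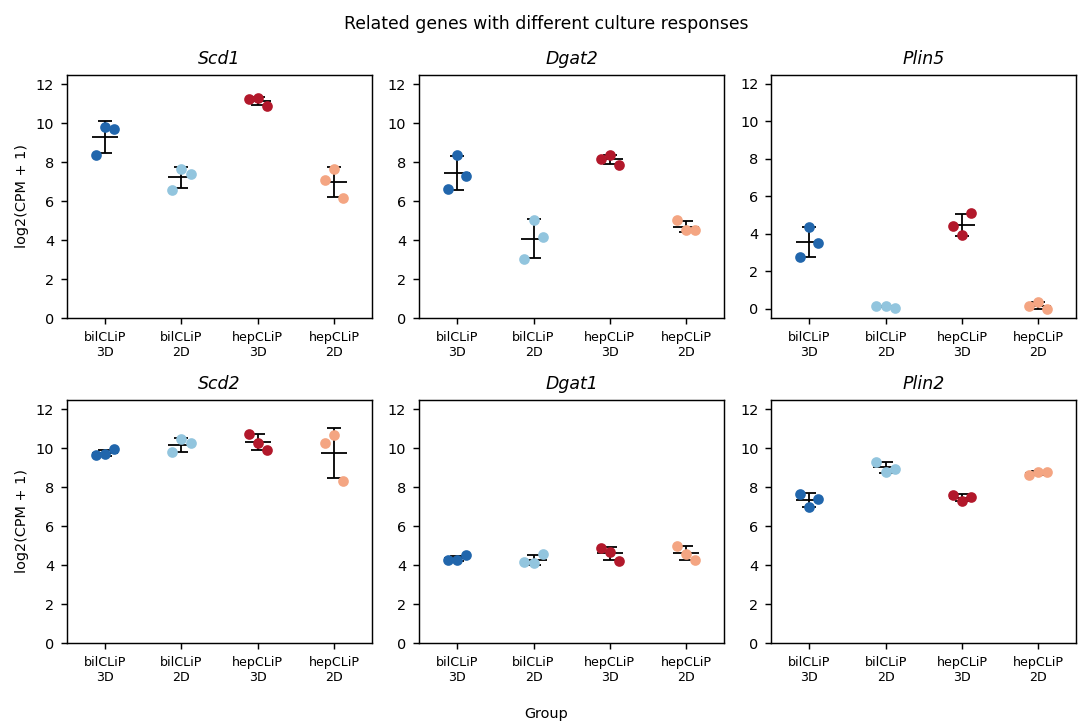
Expression per library, as log2(CPM + 1), of Scd1, Dgat2 and Plin5 (top) and their counterparts Scd2, Dgat1 and Plin2 (bottom), with group means and SD (n = 3 each). The top genes lie higher in the 3D groups of both origins, Dgat1 is level at about 4 to 5, and Plin2 lies lower in both 3D groups.

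Among lipid droplet proteins, perilipin 2 fell in both origins while perilipin 5 and the CIDE genes Cidea and Cideb rose in both. The counts were 4 higher and 1 lower of 6 in bilCLiP cells, where 15.8% of all genes were higher and 14.5% lower. They were 3 higher and 1 lower in hepCLiP cells, where 16.9% of all genes were higher and 17.9% lower. Plin2, the coat protein found on droplets of most cells and often read as a marker of lipid load, had 202, 125 and 168 CPM in bilCLiP 3D, against 630.2, 441 and 497 CPM in bilCLiP 2D. In hepCLiP cells Plin2 had 194, 155 and 180.2 CPM in 3D, against 397, 446 and 435 CPM in 2D. All 3D libraries lay below all 2D libraries, with log2 fold changes of -1.66 ± 0.20 (adjusted p = 0.000258) in bilCLiP and -1.27 ± 0.20 (adjusted p = 0.000863) in hepCLiP cells. Plin5, a perilipin of oxidative tissues that links droplets to mitochondria, had 5.86, 19.9 and 10.4 CPM in bilCLiP 3D, against 0.0861, 0.117 and 0.0456 CPM in bilCLiP 2D. In hepCLiP cells Plin5 had 20.2, 14.3 and 33.7 CPM in 3D, against 0.0925, 0.273 and 0 CPM in 2D. The log2 fold changes were 7.06 ± 0.81 (adjusted p = 0.000206) in bilCLiP and 7.44 ± 0.80 (adjusted p = 0.000142) in hepCLiP cells, and the second was 8.70 without hepCLiP 2D replicate 2. The near-absence in 2D makes the exact size uncertain.

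The promoters of Plin5 and Plin2 are shown because these relatives moved in opposite directions. The Plin5 window is chr17:56117499-56117798 and the Plin2 window chr4:86670010-86670309, both on the minus strand of GRCm38.p6, with capitals as for Acss2 and Fasn.
Plin5: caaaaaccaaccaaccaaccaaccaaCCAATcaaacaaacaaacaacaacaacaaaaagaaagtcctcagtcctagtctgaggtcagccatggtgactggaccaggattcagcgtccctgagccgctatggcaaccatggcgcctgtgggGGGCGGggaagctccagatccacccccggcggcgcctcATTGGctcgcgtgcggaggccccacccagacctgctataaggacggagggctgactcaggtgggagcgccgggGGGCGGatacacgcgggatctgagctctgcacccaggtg
Plin2: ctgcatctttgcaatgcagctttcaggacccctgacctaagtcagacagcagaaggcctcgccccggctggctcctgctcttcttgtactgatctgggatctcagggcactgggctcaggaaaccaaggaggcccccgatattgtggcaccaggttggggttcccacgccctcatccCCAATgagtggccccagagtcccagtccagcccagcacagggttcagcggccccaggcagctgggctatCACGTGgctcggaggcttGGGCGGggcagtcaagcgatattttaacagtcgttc
The Plin5 window holds 2 CCAAT and 2 GC box matches, and the Plin2 window holds 1 match each to CCAAT, the GC box and the E-box. The E-box is also in windows of Elovl5, Lpin2 and Mlxipl, and in 7.15% of windows of all genes. A link of these letters to the opposite directions was not tested.

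Plin4, a perilipin best known from adipocytes and a chromosome 17 neighbour of Plin5, had 2.83, 5.68 and 9.11 CPM in bilCLiP 3D, against 0.129, 0.233 and 1.14 CPM in bilCLiP 2D (log2 fold change 3.55 ± 1.00, adjusted p = 0.0214). In hepCLiP cells Plin4 had 15.6, 8.30 and 11.5 CPM in 3D, against 5.18, 1.55 and 0.300 CPM in 2D (2.33 ± 0.92, adjusted p = 0.0721). The groups stood apart in both origins. In bilCLiP cells the call was lost when 3D replicate 3 was left out (adjusted p = 0.0627), and likewise for 2D replicates 1 (0.0644) and 2 (0.0739), while without 2D replicate 3 the log2 fold change was 4.96. The hepCLiP difference passed without 2D replicate 1 (log2 fold change 3.66, adjusted p = 0.0210). The adipocyte markers Plin1 and Lep had no count in any 3D library, and the 6 adipocyte markers summed to 0.861 to 1.16 CPM in bilCLiP 3D, against 0.137 to 0.583 CPM in bilCLiP 2D. In hepCLiP cells that sum was 0.213 to 26.3 CPM in 3D, led by Fabp4 in replicate 3, and 0.0909 to 3.40 CPM in 2D.

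The CIDE proteins promote droplet fusion and, in the case of Cideb, VLDL lipidation. Cideb had 12.6, 8.55 and 11.5 CPM in bilCLiP 3D, against 2.15, 1.75 and 3.14 CPM in bilCLiP 2D (log2 fold change 2.21 ± 0.29, adjusted p = 0.000454). In hepCLiP cells Cideb had 22.0, 25.3 and 20.7 CPM in 3D, against 7.22, 5.73 and 3.90 CPM in 2D (2.01 ± 0.29, adjusted p = 0.000572). Its groups stood far apart in both origins. Cidea, which in mice is abundant in brown fat and appears in fatty liver, had 1.65, 0.804 and 1.45 CPM in bilCLiP 3D, against 0, 0.0389 and 0 CPM in bilCLiP 2D. The 64 counts against 1 count give a ratio of 91.0 with an exact 95% counting interval of 15.8 to 3651 (adjusted p = 0.00472). In hepCLiP cells Cidea had 5.20, 1.28 and 0.764 CPM in 3D, led by replicate 1, and no count in 2D. With the 2D count set to a floor of 3 over the group, Cidea was at least 50.3-fold higher in hepCLiP 3D (100 counts against 0, adjusted p = 0.00164). Without 3D replicate 1, which holds 71 of those counts, the bound was at least 21.6-fold, and in bilCLiP cells without 2D replicate 2, which holds the 1 count, at least 19.3-fold. Cidec, also called FSP27, averaged 1.68 ± 0.83 CPM in bilCLiP 3D and 1.42 ± 1.24 CPM in bilCLiP 2D (adjusted p = 0.874), and 1.92 ± 0.39 CPM in hepCLiP 3D and 2.32 ± 0.94 CPM in hepCLiP 2D (adjusted p = 0.852; SD, n = 3 each).

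Of the 3 genes of hydrolysis and VLDL loading, Mttp and Pnpla3 rose in both origins and Pnpla2 passed in neither. Mttp, the microsomal transfer protein that lipidates apolipoprotein B, had 73.0, 209 and 103 CPM in bilCLiP 3D, against 3.10, 5.56 and 5.97 CPM in bilCLiP 2D. In hepCLiP cells Mttp had 189.6, 189.8 and 166 CPM in 3D, against 6.43, 4.36 and 22.4 CPM in 2D. It was 26.3-fold higher in bilCLiP 3D (log2 fold change 4.72 ± 0.65, adjusted p = 0.000543) and 16.5-fold higher in hepCLiP 3D (4.04 ± 0.62, adjusted p = 0.000837), the second being 5.07 on the log2 scale without hepCLiP 2D replicate 3. Pnpla3, a lipid droplet protein whose human form is tied to fatty liver disease, had 1.19, 1.72 and 1.74 CPM in bilCLiP 3D, against 0.258, 0.583 and 0.182 CPM in bilCLiP 2D (2.15 ± 0.59, adjusted p = 0.0192). In hepCLiP cells Pnpla3 had 2.27, 2.91 and 2.08 CPM in 3D, against 0.601, 0.273 and 0.0999 CPM in 2D (2.87 ± 0.61, adjusted p = 0.00455). Levels were low throughout, and 4 single libraries each decided the bilCLiP call. It was lost when 3D replicates 2 or 3 (adjusted p = 0.0533 and 0.0517) or 2D replicates 1 or 3 (adjusted p = 0.0641 and 0.0666) were left out. The log2 value was 2.78 without bilCLiP 2D replicate 2, and in hepCLiP cells 3.64 without 2D replicate 1. Pnpla2, adipose triglyceride lipase, which starts lipolysis, averaged 54.9 ± 1.95 CPM in bilCLiP 3D and 51.3 ± 7.65 CPM in bilCLiP 2D (adjusted p = 0.693), and 72.5 ± 15.3 CPM in hepCLiP 3D and 77.2 ± 6.64 CPM in hepCLiP 2D (adjusted p = 0.695). With library totals alone Pnpla2 had a log2 fold change of -0.67 (adjusted p = 0.00287) in hepCLiP cells.

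Single libraries stood low in many of the genes at once. In bilCLiP 3D, replicate 1 was the lowest library for 21 of the 31 genes, where 36.7% of all genes tested had their lowest value there. Scd1, Elovl2, Dgat2, Mttp, Gpam, Lpin1, Plin4 and Plin5 were among them, and this library also had the lowest hepatocyte marker sum of its group, 18829 CPM. Its Spp1 was the highest of the group at 33046 CPM, while its Krt19 was the lowest at 1.25 CPM. In bilCLiP 2D, replicate 1 was lowest or tied for lowest for 21 genes (39.0% of all genes). Ties went to the first library, and Thrsp and Cidea were tied at 0 with another library there. In hepCLiP 3D, replicate 3 was lowest for 21 genes (35.3% of all genes), and in hepCLiP 2D replicate 3 was lowest for 17 genes (35.5% of all genes). The part of the marker levels in these differences was not tested. Fibroblast markers summed to 6.60 to 19.1 CPM in bilCLiP 3D and 0.155 to 1.73 CPM in bilCLiP 2D, and to 4.52 to 284 CPM in hepCLiP 3D, led by Dcn in replicate 1, and 0.727 to 4.21 CPM in hepCLiP 2D. Stellate cell markers summed to 5.69 to 33.1 CPM in bilCLiP 3D and to 2.80 to 3.34 CPM in bilCLiP 2D, and to 1.88 to 7.25 CPM in hepCLiP 3D and to 0.636 to 4.86 CPM in hepCLiP 2D, led by Reln in every group. Reln was higher in bilCLiP 3D, at 18.3 CPM, than in bilCLiP 2D, at 3.05 CPM (log2 fold change 2.58, adjusted p = 0.0425), and the stellate marker Hand2 had no count in any library. Macrophage markers summed to 4.81 to 19.2 CPM in bilCLiP 3D and 4.13 to 10.02 CPM in bilCLiP 2D, and to 6.17 to 19.2 CPM in hepCLiP 3D and 5.64 to 10.8 CPM in hepCLiP 2D, with Adgre1 and Clec4f at 0 in both 3D groups. Csf1r averaged 11.5 CPM in bilCLiP 3D and 3.72 CPM in bilCLiP 2D (adjusted p = 0.109), and 9.06 CPM in hepCLiP 3D and 3.22 CPM in hepCLiP 2D (adjusted p = 0.130). Cd68 went the other way, at 2.11 CPM in bilCLiP 3D and 4.23 CPM in bilCLiP 2D (adjusted p = 0.245). Its means were 1.76 CPM in hepCLiP 3D and 4.33 CPM in hepCLiP 2D (adjusted p = 0.128). Endothelial markers stayed under 4 CPM in every library. Mesothelial markers summed to 7.97 to 27.8 CPM in bilCLiP 3D and 546 to 867 CPM in bilCLiP 2D. For hepCLiP cells the sum was 5.57 to 25.8 CPM in 3D and 333 to 989 CPM in 2D. Nearly all of this sum was Msln. The mesothelial markers Wt1, Upk3b and Lrrn4 had just 12, 3 and 1 counts over bilCLiP 2D, and 6, 3 and 5 over hepCLiP 2D.

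In bilCLiP against hepCLiP cells in 2D, no gene of the list was called, where 0.135% of all genes were, 0.0811% higher and 0.0541% lower. At an unadjusted p under 0.05 there were 7 genes, all lower in bilCLiP, where 9.33% of all genes were. DESeq2 called 5 lower, where it called 2.82% of all genes lower, and limma called none. Fitted log2 differences that did not pass reached -2.47 for Elovl2 (adjusted p = 0.252), -2.23 for Plin4 (adjusted p = 0.329) and -1.69 for Mlxipl (adjusted p = 0.204). The median log2 difference was -0.25, with 23 of 31 below 0, where the median over all genes was -0.04. All bilCLiP 2D libraries lay below all hepCLiP 2D libraries for 4 genes, Thrsp, Agpat2, Cideb and Pnpla2 (background 11.9%), and above them for none (background 9.06%).

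In 3D the origins differed in the same direction across most of the list, but only Thrsp passed the test. The median log2 difference of bilCLiP against hepCLiP was -0.61, where it was 0.0009 over all genes, and 30 of the 31 genes had lower values in bilCLiP. Thrsp had 0.132, 0.0574 and 0.116 CPM in bilCLiP 3D, against 2.34, 3.05 and 2.92 CPM in hepCLiP 3D (log2 fold change -4.69 ± 0.71, adjusted p = 0.0433), where 0.101% of all genes were called, 0.0541% higher and 0.0473% lower. This call was lost in 9 of the 12 fits that left out 1 library (adjusted p = 0.0280 to 0.269), with RosaYFP libraries alone (0.125), with only the 2 compared groups fitted (0.0708) and with library totals alone (0.0543). In 2D Thrsp had 1 count over the bilCLiP libraries and 14 over the hepCLiP libraries. At an unadjusted p under 0.05 there were 13 genes, all lower in bilCLiP 3D, where 8.41% of all genes were. DESeq2 called 6 of the list lower, Thrsp, Acaca, Scd1, Gpam, Agpat2 and Cideb, where it called 2.87% of all genes lower. All bilCLiP 3D libraries lay below all hepCLiP 3D libraries for 13 genes (background 10.1%) and above them for none (background 11.7%). The 13 were Acly, Acaca, Acacb, Thrsp, Scd1, Fads2, Mlxipl, Gpam, Agpat2, Lpin2, Cideb, Pnpla2 and Pnpla3. The Scd1 difference was -1.72 ± 0.46 (adjusted p = 0.163) and the Gpam difference -1.14 (adjusted p = 0.164). Genotype is partly confounded with origin, since all bilCLiP libraries are RosaYFP and 2 of 3 hepCLiP libraries per culture are RosaConfetti.

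**Figure D4:**
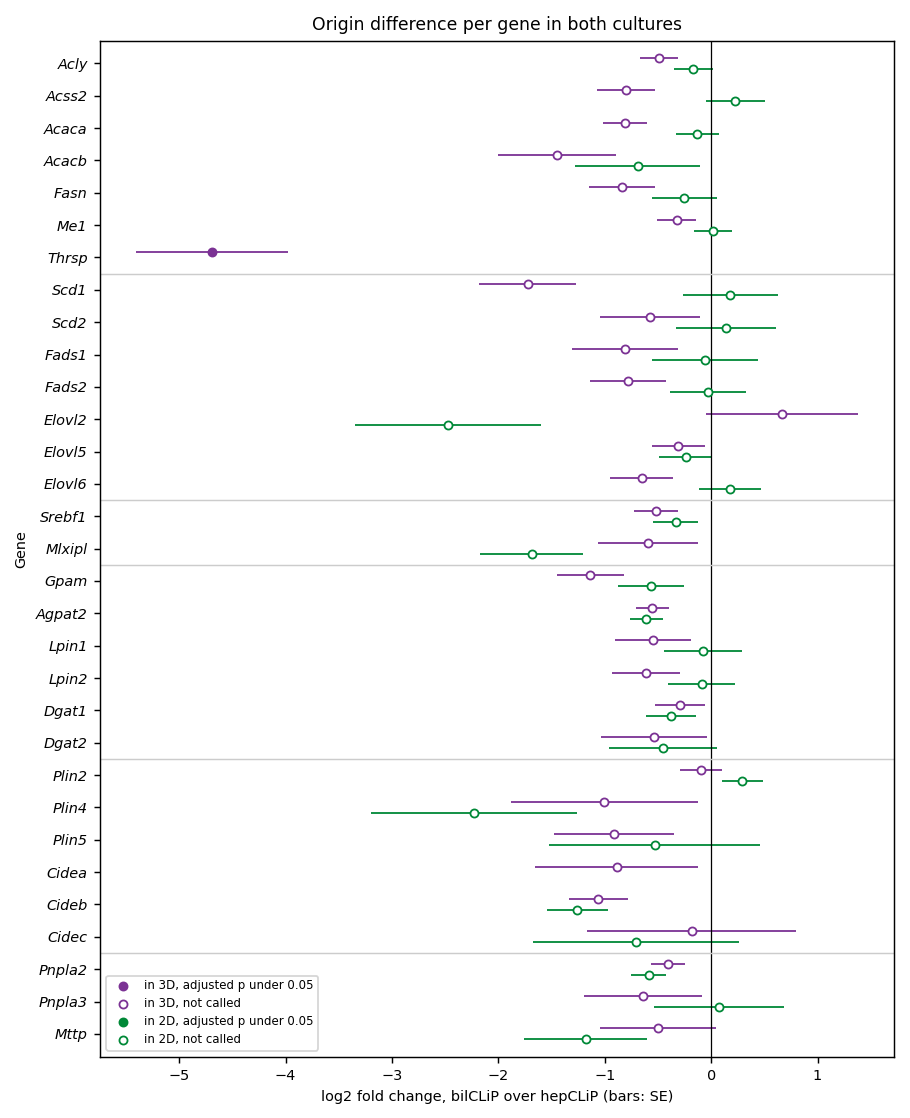
Log2 fold change of bilCLiP over hepCLiP for the 31 genes tested, in 3D (purple) and in 2D (green), with bars of 1 SE and filled points where the adjusted p was under 0.05. Points of genes with 3 or fewer counts in a group are not drawn (Thrsp and Cidea in 2D). In 3D 30 of the 31 genes lie left of 0, and Thrsp at -4.69 is the filled point.

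The culture effect itself was compared between the origins by an interaction term, and it was called for no gene of the list or of the table (background 0%). For the list, edgeR left 4 genes at an unadjusted p under 0.05, where 3.6% of all genes were, each with an adjusted p of 1, and DESeq2 and limma called none. As differences of log2 fold changes, bilCLiP minus hepCLiP, these were -1.02 for Acss2, -0.68 for Acaca, -1.90 for Scd1 and 3.14 for Elovl2. Differences between the origins in which genes passed the culture test are therefore not shown to be differences in response.

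Replicate numbers were taken to pair the 3D and 2D libraries of an origin, a judgement from the data and not from the labels. Each gene then has 3 paired differences, on the log2(CPM + 1) scale. In bilCLiP cells 19 of the 33 genes were higher in 3D in all 3 pairs, 6 were lower (Acaca, Fasn, Me1, Scd2, Elovl6 and Plin2) and 8 were mixed or had no direction. Of all genes tested, 34.9% were higher and 34.7% lower in all pairs. In hepCLiP cells 23 were higher, 2 were lower (Me1 and Plin2) and 8 were mixed or had no direction, where 32.3% of all genes tested were higher and 37.1% lower. In both origins the 8 include the untested Elovl3 and Mogat1, whose differences were 0 in all bilCLiP pairs and in most hepCLiP pairs. With the pairs as a block in the fit, 16 genes rose and 3 fell in bilCLiP cells, where 21.7% of all genes rose and 21.5% fell, the added one being Acacb (log2 fold change 1.42, adjusted p = 0.0454). In hepCLiP cells the block gave 21 higher and 2 lower, where 22.4% and 24.7% of all genes were, adding Acly (0.40, adjusted p = 0.0286), Acaca (0.54, adjusted p = 0.0154), Fads1 (0.90, adjusted p = 0.00239), Lpin2 (0.64, adjusted p = 0.0330) and Plin4 (2.77, adjusted p = 0.0111).

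Of 61 further genes of lipid metabolism, 57 were tested, and 16 rose and 8 fell in bilCLiP 3D, with a median log2 fold change of 0.31, where 15.8% of all genes were higher and 14.5% lower. In hepCLiP 3D 21 rose and 10 fell, with a median of 0.46, where 16.9% of all genes were higher and 17.9% lower. The share that fell, 14% in bilCLiP and 17.5% in hepCLiP cells, was near that of all genes. Slc27a2, a very long chain acyl-CoA synthetase and fatty acid transporter, averaged 85.8 ± 49.6 CPM in bilCLiP 3D and had no count in bilCLiP 2D, so it was at least 2078-fold higher (4382 counts against 0). In hepCLiP cells it averaged 226 ± 72.9 CPM in 3D and 0.365 ± 0.200 CPM in 2D (log2 fold change 9.26 ± 0.69, adjusted p = 6.92e-05). Hsd17b13, a liver droplet protein, averaged 1182 ± 768 CPM in bilCLiP 3D and 2.00 ± 1.90 CPM in bilCLiP 2D, and 1221 ± 354 CPM in hepCLiP 3D and 8.21 ± 10.8 CPM in hepCLiP 2D (adjusted p = 0.00142 and 0.00271).

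Cd36, a fatty acid translocase, averaged 68.7 ± 58.5 CPM in bilCLiP 3D and 0.379 ± 0.329 CPM in bilCLiP 2D, and 132 ± 55.0 CPM in hepCLiP 3D and 4.60 ± 3.42 CPM in hepCLiP 2D (adjusted p = 0.00122 and 0.00381). G0s2, an inhibitor of adipose triglyceride lipase, averaged 6.20 ± 7.47 CPM in bilCLiP 3D and 0.231 ± 0.173 CPM in bilCLiP 2D, and 5.71 ± 3.11 CPM in hepCLiP 3D and 0.231 ± 0.361 CPM in hepCLiP 2D (adjusted p = 0.0240 and 0.0239). Acsl1, the main long chain acyl-CoA synthetase of liver, averaged 109 ± 60.6 CPM in bilCLiP 3D and 20.1 ± 3.67 CPM in bilCLiP 2D (log2 fold change 2.44 ± 0.33, adjusted p = 0.000543). Ces1d, a carboxylesterase that mobilises stored triglyceride, had 395 counts in bilCLiP 3D and 1 count in bilCLiP 2D (adjusted p = 0.00150), and a log2 fold change of 3.74 ± 1.09 (adjusted p = 0.0218) in hepCLiP cells. It belongs to a family of near copies, so its counts are uncertain. Elovl4, an elongase of very long chains, fell in hepCLiP cells, with 3 counts over the 3D libraries and 124 over the 2D libraries (ratio 0.0365, exact 95% counting interval 0.00743 to 0.109, adjusted p = 0.0194).

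Other members of this wider list, named after their values were seen, fell in both origins. Hilpda, an inhibitor of adipose triglyceride lipase induced by hypoxia, had log2 fold changes of -1.83 (adjusted p = 0.00391) in bilCLiP and -1.39 (adjusted p = 0.0129) in hepCLiP cells. Mid1ip1, which promotes polymerisation of acetyl-CoA carboxylase and is the closest relative of Thrsp, had -1.95 (adjusted p = 0.000376) and -1.91 (adjusted p = 0.000368). G6pdx, the NADPH source of the pentose phosphate pathway, had -1.28 (adjusted p = 0.0240) and -1.29 (adjusted p = 0.0209), in the same direction as Me1. Nr1h3, which encodes the liver X receptor alpha, an activator of Srebf1 transcription, rose by 2.43 (adjusted p = 0.00187) and 2.10 (adjusted p = 0.00315) on the log2 scale in bilCLiP and hepCLiP cells.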

How the data were processed

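RNA-seq was measured in 12 libraries, 4 groups of 3. The authors deposited a table of raw counts per gene and a table of normalized counts (unit signal), whose values equal the raw counts divided by 1 constant per library within a relative tolerance of 0.001. Per the submitters' processing notes, STAR 2.7.10b, featureCounts 2.0.1, DESeq2 and the GRCm39 build were used. The sources used here give no annotation, counting options or strand setting, so reads of overlapping, antisense or near-identical genes may be mixed.

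The count test was edgeR 4.0.16 in R 4.3.3. The filterByExpr filter left 14798 genes, scaling was by TMM, and 1 robust quasi-likelihood fit of 4 group means over 12 libraries gave 5 contrasts with Benjamini-Hochberg adjustment over all genes tested. All adjusted p-values are from this test unless another is named. CPM values use TMM library sizes, and SE were derived from each log2 fold change with its F statistic. The steps were tested on simulated data. A fold against a group with no count used a floor of 3 counts over the group, and 1 to 3 counts got an exact 95% interval, for counting error only. The labels do not say whether replicates are separate cultures or animals, and the p-values reflect just the variation among these libraries, which may be technical. Within groups, counts of every library pair differed by 54.2 to 186 times sampling noise (chi-square per degree of freedom), so none was taken for a duplicate. Deviations of same-numbered 3D and 2D libraries from their group means correlated at 0.432 to 0.506 in bilCLiP and 0.474 to 0.513 in hepCLiP cells. Those of other numbers were all negative, but deviations cancel out within a group, so this is no separate support. The numbers were taken as pairs from the positive values, a judgement from the data and not from the labels.

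Alternatives were RLE scaling, library totals alone (chosen after seeing the data), no filter, DESeq2 1.42.0, limma 3.58.1 on log2(value + 1) of the deposited normalized table, fits of the compared groups only, RosaYFP libraries only, each library left out in turn and a replicate block. All 33 genes were to be reported, with per-library values for those called, and up to 6 called genes per culture contrast, those of largest fold change, from the wider list of 61. The members, lists and tests were chosen with earlier results of these data known. Promoter windows came from RefSeq on GRCm38.p6 and exon lengths from GENCODE M21, and no coordinates were moved between builds.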

Additional observations from a re-analysis of the deposited data

Results flagged for a closer look

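Acaca, the cytosolic acetyl-CoA carboxylase, had opposite directions in the 2 origins: all 3 bilCLiP pairs were lower in 3D (differences of log2(CPM + 1) of -0.37, -0.0004 and -0.05) and all 3 hepCLiP pairs were higher (0.82, 0.56 and 0.22). The culture effect in bilCLiP minus that in hepCLiP cells was -0.68 on the log2 scale. Tested as an interaction in edgeR's quasi-likelihood fit, it had an unadjusted p = 0.0376 and an adjusted p of 1, so the difference was not called. The second bilCLiP pair is close to 0, and with RLE scaling the bilCLiP pairs were mixed.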

How the results depend on the processing

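No fold change of a gene past the threshold changed sign under any alternative run. Left out in turn, single libraries gave 12 to 15 genes higher and 2 to 3 lower in bilCLiP 3D, 15 to 19 higher and 2 lower in hepCLiP 3D, none between the origins in 2D, 0 to 2 lower in bilCLiP than in hepCLiP in 3D, and none for the interaction. RosaYFP libraries alone gave 4 higher and 1 lower in hepCLiP cells, with 1 hepCLiP library per culture assumed to vary like bilCLiP. All 18 genes called there kept their direction, with a median absolute log2 fold change of 2.91 against 2.58 with all libraries. DESeq2 called 5 genes lower in bilCLiP in 2D and 6 in 3D. In 3D, none was lower with the 2 compared groups fitted alone, with RosaYFP libraries alone or with library totals alone. Library totals alone gave 5 lower in bilCLiP 3D (Acaca, -0.61, adjusted p = 0.0141, and Fasn added), where 36.6% of all genes were lower. They gave 4 lower in hepCLiP 3D (Dgat1, -0.59, adjusted p = 0.0471, and Pnpla2 added), where 44.8% of all genes were lower. With this scaling 11 bilCLiP and 9 hepCLiP genes were lower in all pairs. The share of all genes lower in all pairs was not computed for it, so these 2 counts have no background. The replicate block gave 16 higher and 3 lower in bilCLiP, 21 higher and 2 lower in hepCLiP cells, and 0 for the interaction, and it changed no call beyond those given. All other settings stayed within 1.5 times the reported counts. Genes under about 1 CPM (Thrsp, Cidea, Acacb, Pnpla3) rest on few counts.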
